A study of Homo sapiens with 2 samples.

Results

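The clustered protocadherins of chromosome 5 were taken as the protein-coding genes of the RefSeq table on that chromosome whose symbol starts with PCDHA, PCDHB or PCDHG. There were 53 of them among 19974 protein-coding genes on the chromosomes of the domain lists: 15 alpha, 16 beta and 22 gamma genes. A further 11 records with such symbols, which are pseudogenes, an antisense RNA, a constant region or whole clusters, were left out.

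Both libraries are Hi-C libraries of HepG2, a long-established cell line from a human liver cancer. Hi-C joins and sequences stretches of DNA that are neighbours in the folded nucleus. The PA+OA cells were held for 48 h in palmitic acid, a saturated fatty acid, at 120 µM and oleic acid, a monounsaturated one, at 240 µM, in DMEM with 1% BSA free of fatty acids. The mock cells received DMSO at 1 part in 1000 for the same time. The labels leave unclear if BSA was present in the mock medium too, and the fatty acids were given together only. Each group had 1 library, and each library is represented by a list of topologically associating domains, the stretches of a chromosome that contact themselves more than their surroundings. There were no replicates, so each difference is one between 2 libraries, and no test of the treatment was made. The read depth is unknown, since the lists hold positions only.

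Clustered protocadherins are cell-surface proteins of the cadherin superfamily, best known from neurons, where each cell uses a small choice of isoforms that mark it apart from its neighbours. In the alpha and gamma arrays every gene has its own promoter and its own large variable exon, which is spliced to constant exons shared by the whole array, while beta genes have no constant exons. The insulator protein CTCF and the cohesin complex fold these promoters towards distant enhancers, which makes the locus a textbook case of promoter choice by chromatin looping. No expression values were analysed here, and the domain lists do not say which of the genes these cells transcribe.

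The PA+OA list had a boundary inside the alpha array, at position 140920000 of chromosome 5 (hg38), and the mock list had none in any of the arrays. In the PA+OA list the 53 genes were divided, by the middle of their records, between a domain from 137320001 to 140920000, with 5 genes, and one from 140920001 to 142000000, with 48. In the mock list all 53 lay in 1 domain from 140240001 to 141960000. The beta and gamma arrays held no boundary in either list. The difference is therefore 1 boundary of each list and not 53 separate events, and counts of genes below describe where that boundary fell.

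**Figure D1:**
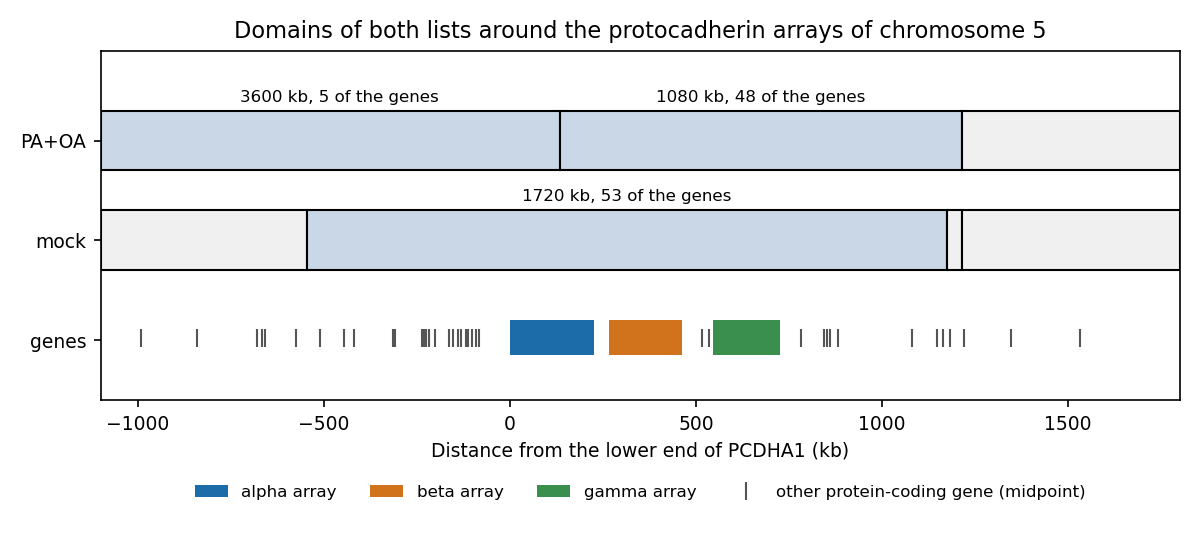
Domains of the PA+OA list (top) and of the mock list (middle) are drawn against the distance from the lower end of PCDHA1 in kb, with the alpha, beta and gamma arrays as coloured blocks and the midpoints of other protein-coding genes as ticks (bottom). Shaded domains hold protocadherin genes, with the domain size and the number of genes above them; the PA+OA domain of 3600 kb runs on beyond the left edge. The PA+OA boundary cuts the alpha block, and the mock boundary lies to the left of all 3 blocks.

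The arrays follow each other from alpha over beta to gamma. The alpha array spans 140786140 to 141012347, or 226 kb, the beta array 141051374 to 141249365, or 198 kb, and the gamma array 141330514 to 141512975, or 182 kb. All 15 alpha records share 1 higher end, as do all 22 gamma records, because each record runs from its own variable exon through the common constant exons. The 16 beta records have 16 different ends and are short, with a median length of 3.85 kb against 171 kb for alpha and 123 kb for gamma. The midpoint of an alpha or gamma record therefore does not stand for the promoter, which lies at the lower end for these genes on the plus strand.

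Promoters of many of these genes resemble each other within an array, and CTCF acts on many of them, so the bases just before some genes are shown. Those shown are the first gene of each array and PCDHA6, PCDHAC1 and PCDHAC2. PCDHAC1 and PCDHAC2 differ from the other alpha genes in base composition, as given below. PCDHA6 has the midpoint nearest to the PA+OA boundary, but its lower end lies 92.0 kb before it. PCDHA13, whose lower end is the last before the boundary, had no promoter window. RefSeq windows (GRCh38.p14, 250 bases before to 50 after a start) were found for 47 of the 53 genes, of which 46 begin at the lower end of the record. The 120 bases before the start are given on the plus strand. Capitals mark each CGCT, the string at the core of the element known in many, but not all, protocadherin promoters. Within 120 bases before the start, 31.8% of all windows held CGCT on the strand of the gene. A match by itself therefore does not identify the element, and which matches belong to it was not tested.
PCDHA1: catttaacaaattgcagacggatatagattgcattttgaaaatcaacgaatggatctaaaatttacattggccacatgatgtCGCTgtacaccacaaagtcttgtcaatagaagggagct
PCDHA6: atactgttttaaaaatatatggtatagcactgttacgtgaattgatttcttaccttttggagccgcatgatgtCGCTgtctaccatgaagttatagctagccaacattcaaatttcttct
PCDHAC1: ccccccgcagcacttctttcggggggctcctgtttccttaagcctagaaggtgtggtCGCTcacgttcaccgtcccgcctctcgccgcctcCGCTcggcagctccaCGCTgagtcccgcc
PCDHAC2: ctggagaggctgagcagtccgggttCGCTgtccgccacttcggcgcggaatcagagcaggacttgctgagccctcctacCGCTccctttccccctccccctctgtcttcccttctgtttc
PCDHB1: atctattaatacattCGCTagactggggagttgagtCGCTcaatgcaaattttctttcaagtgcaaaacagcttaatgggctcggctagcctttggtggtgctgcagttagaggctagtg
PCDHGA1: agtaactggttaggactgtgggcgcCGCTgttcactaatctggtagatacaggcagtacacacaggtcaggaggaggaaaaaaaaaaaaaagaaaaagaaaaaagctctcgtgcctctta
These stretches lie on chromosome 5 at chr5:140786020-140786139, chr5:140827840-140827959, chr5:140926179-140926298, chr5:140966356-140966475, chr5:141051254-141051373 and chr5:141330394-141330513, in the same order.

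PCDHA1 and PCDHA6 both carry CATGATGTCG up to and into the core, which begins 38 and 47 bases before their starts, and the PCDHAC1 and PCDHAC2 stretches do not hold it. On the strand of the gene and within 120 bases before the start, CGCT was found for 12 of 13 alpha, 13 of 14 beta and 19 of 20 gamma windows, against 31.8% of all 35116 windows of the table. The exceptions were PCDHA9, PCDHB8 and PCDHGB2, and the PCDHGB2 window does not begin at the lower end of its record. Over the whole 300 bases and both strands, where the reverse complement is AGCG, 46 of 47 windows held it, against 70.01% of all windows. The other strings, also searched on both strands, were found in 12 of 47 windows for CCCTC (71.2% of all), 6 for CCGCG (43.4% of all) and 17 for TATAA (20.4% of all). Matches to CCGCG and to its reverse complement can overlap.

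Each array also had a stretch of its own. The string of 10 bases found in most alpha windows was CATGATGTCG, in 8 of 13 alpha windows and in no beta or gamma window, and 11 of the 35116 windows of the table held it on either strand. Its last 2 bases can be the first of the core. The most frequent one of the beta array was GGTGGCGCTG, in 12 of 14 beta windows, with 97 windows in the table, and that of the gamma array was GCGCCGCTGT, in 9 of 20, with 46. Both hold the whole core. These strings were picked because they were frequent in the arrays, so the counts are a description.

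**Figure D2:**
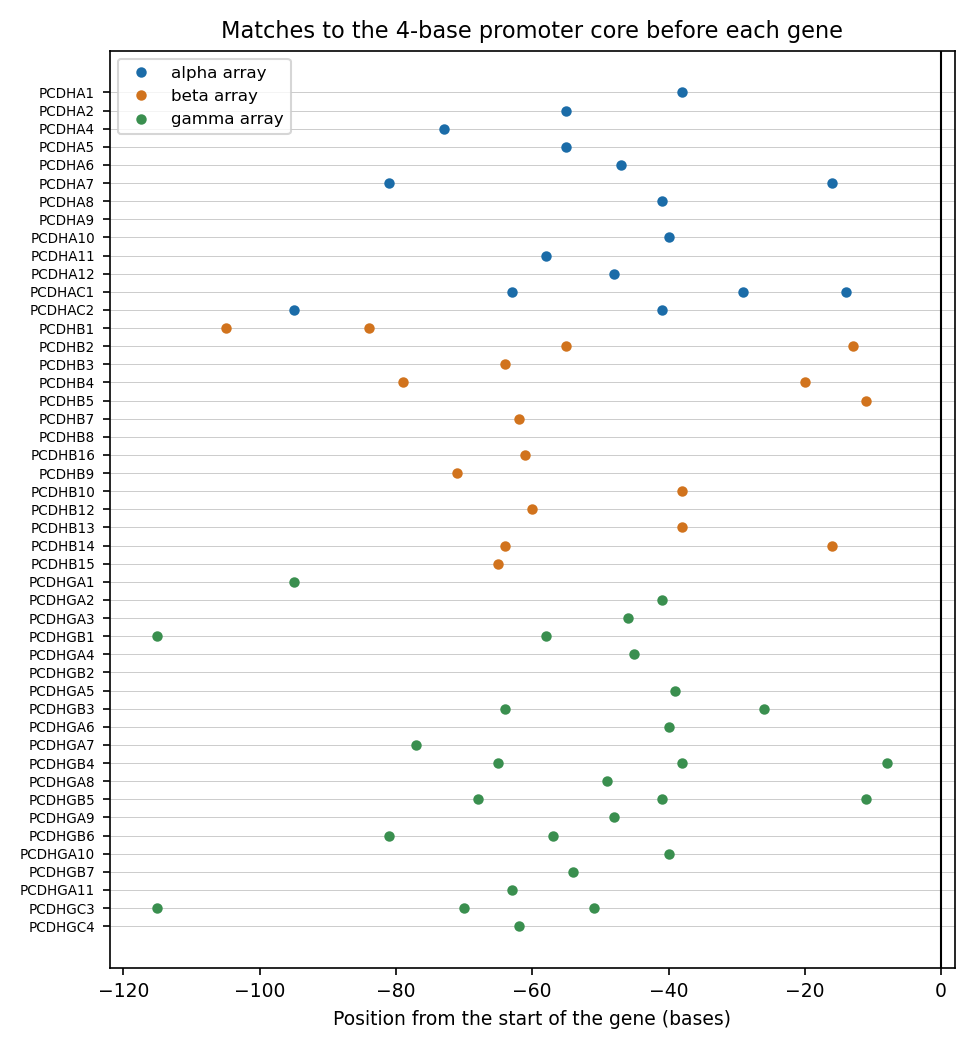
Each row is a protocadherin gene with a promoter window, from PCDHA1 at the top to PCDHGC4 at the bottom. Points mark each match to CGCT on the strand of the gene, by its position in bases from the start of the gene (0). A match need not be part of the promoter element. Of the 47 genes, 31 have a single match and 13 have 2 or 3, and PCDHA9, PCDHB8 and PCDHGB2 have none in the stretch drawn.

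The windows of the C-type genes were richer in G and C than most others of their arrays. PCDHAC1, PCDHAC2, PCDHGC3 and PCDHGC4 had 66%, 63%, 59% and 60.7% G or C. The medians were 36% for the other alpha windows, 41% for the other gamma windows and 58.7% for all windows of the table. The windows of PCDHAC1, PCDHAC2, PCDHGC3 and PCDHGC4 held 27, 15, 18 and 23 CpG dinucleotides, with a median of 20.5. The other 11 alpha windows held 3 to 9, with a median of 7, and the other 18 gamma windows 2 to 16, with a median of 6.5. The CpG counts overlapped, as PCDHGB6 held 16 and PCDHAC2 15. The median over all windows of the table was 14, with quartiles of 4 and 28, so the C-type counts were not unusual among all windows. In mouse neurons the C-type genes are used broadly and not by chance choice, and PCDHGC4 has a counterpart there that interneurons need to survive.

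The alpha array was the only one cut by a boundary of the PA+OA list. That boundary lay between the lower ends of PCDHA13, 37.9 kb before it, and of PCDHAC1, 6.30 kb after it. The spacing between those genes, 44.2 kb, is the longest of the 14 spacings between neighbouring lower ends in the array, whose median is 7.06 kb. By lower ends, which stand for the promoters, all 13 genes PCDHA1 to PCDHA13 lay in the PA+OA domain to the left, and PCDHAC1 and PCDHAC2 lay in the one to the right with all beta and gamma genes. The constant exons, recorded as PCDHACT from 140978949, lay 58.9 kb to the right of the boundary. Both lists are on a grid of 40 kb, so the place of the boundary is known to a bin at best, and the bins on either side of it held the lower ends of PCDHA13 and PCDHAC1.

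By midpoints the same boundary fell between PCDHA5 and PCDHA6. The midpoint of PCDHA5 lay 3.02 kb before it, and that of PCDHA6 153 bases after it, far less than 1 bin. PCDHA1, with the longest record, had its midpoint 20.8 kb before the boundary, and PCDHAC2, with the shortest, 69.4 kb after it. The 5 genes in the PA+OA domain to the left were thus PCDHA1 to PCDHA5. By higher ends no gene lay to the left. The boundary stood inside the records of the 13 genes PCDHA1 to PCDHA13, whereas 1.22% of the 19974 protein-coding genes, and 1.94% of the 5519 with records as long as those of the alpha genes, contained a boundary found in the PA+OA list only. Since the 13 records overlap, this is 1 boundary counted 13 times. No protocadherin record contained a boundary found in the mock list only, against 1.47% of all protein-coding genes.

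**Figure D3:**
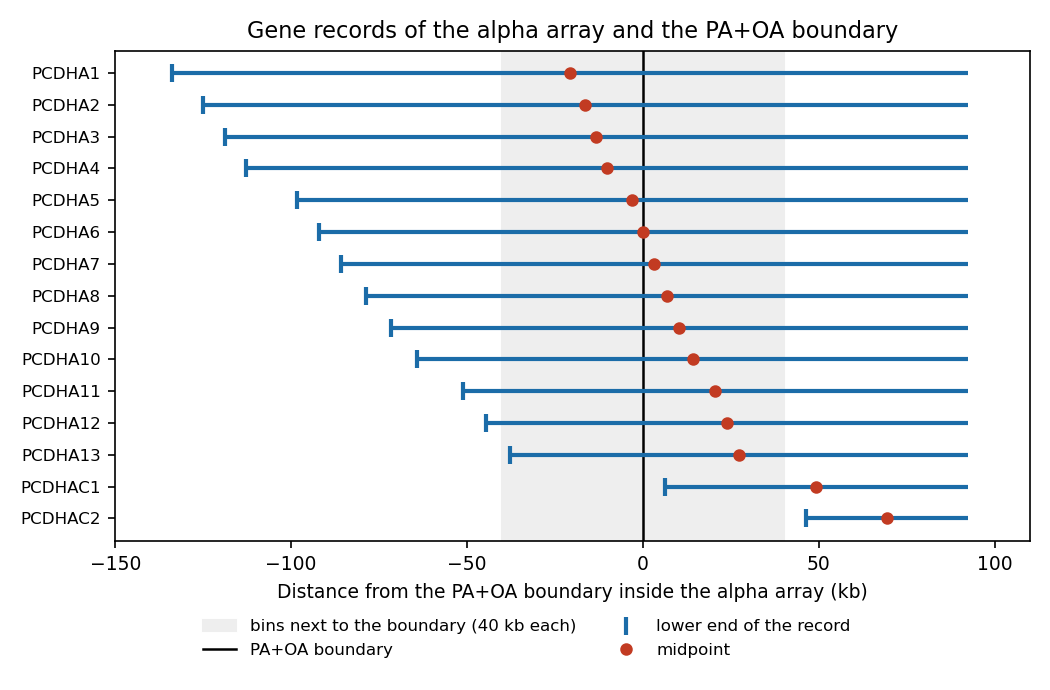
The gene records of the 15 alpha genes are drawn as horizontal lines against the distance from the PA+OA boundary in kb, with the lower end as a bar and the midpoint as a red point; the grey band covers the bin on either side. The lower ends of PCDHA1 to PCDHA13 are left of the boundary and those of PCDHAC1 and PCDHAC2 right of it, whereas the midpoints change sides between PCDHA5 and PCDHA6.

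The beta genes stayed together in both lists and lay nearer to a boundary in the PA+OA list. Their midpoints were 135 to 327 kb from the nearest PA+OA boundary, which was the one in the alpha array, and 713 to 858 kb from the nearest mock boundary. PCDHB1, the first gene of the array and set apart from PCDHB2 by 43.2 kb, had its midpoint 135 kb from the PA+OA boundary and 815 kb from a mock boundary. PCDHB15, the last of the array, had 327 kb in the PA+OA list and 713 kb in the mock list. The ranges of the lists did not overlap over the 16 beta genes. Since all 16 have the same nearest PA+OA boundary, this separation follows from where that boundary fell and is not 16 separate events. The share of all protein-coding genes that lay nearer to a boundary in the PA+OA list is not given here for comparison.

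The gamma genes lay far from any boundary in both lists, at 499 to 540 kb in the PA+OA list and at 459 to 538 kb in the mock list. Of the 22 genes, 7 were nearer to a boundary in the PA+OA list, since their midpoints were closer to the one in the alpha array than the mock boundaries were. PCDHGA1, the first gene, was 502 kb from a PA+OA boundary and 538 kb from a mock boundary. PCDHGC5, the last, was 499 kb from a PA+OA boundary and 459 kb from a mock boundary. PCDHGC3 and PCDHGC4, which lie next to it, were 506 and 501 kb from a PA+OA boundary. For the alpha genes the distances were 0.153 to 69.4 kb in the PA+OA list, with a median of 14.1 kb, and 659 to 749 kb in the mock list, with a median of 687 kb.

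**Figure D4:**
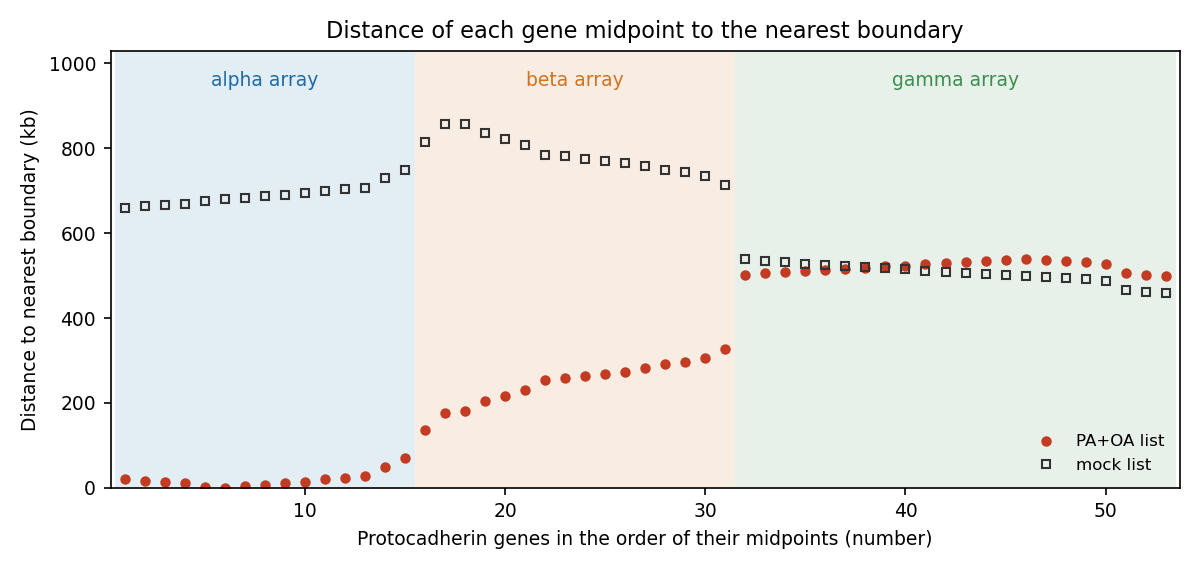
The distance in kb from the midpoint of each of the 53 genes to the nearest boundary is plotted for the PA+OA list (red points) and the mock list (open squares), with genes in the order of their midpoints. All alpha and beta genes are nearer to a boundary in the PA+OA list, and the gamma genes lie at similar distances in both lists.

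None of the 53 genes lay in a domain that was kept. A domain is called kept where both edges have an edge of the other list within 1 bin of 40 kb and the other list has no boundary further inside. The count was 0 of 53 in both lists, against 40.4% of all protein-coding genes in the PA+OA list and 40.5% in the mock list. The 53 genes lie in 1 mock domain and 2 PA+OA domains and are not independent, so no limit is given for this count. A boundary that the other list lacked stood at most 50 kb from 14 of the 53 genes, or 26.4%, against 5.8% of all protein-coding genes. They were all alpha genes, and PCDHAC2 was the alpha gene not among them. All 14 were near the same boundary inside the alpha array, so this is 1 boundary counted 14 times and no interval is given. Placed by lower ends instead, 4 of the 53 genes lay within 50 kb, against 5.97% of all protein-coding genes placed in that way. The count of 14 thus depends on the use of midpoints.

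Among pairs of genes, 1138 of the 1378 pairs that can be formed from the 53 genes shared a PA+OA domain, and all 1378 shared the mock domain. Within arrays, 55 of 105 alpha pairs, all 120 beta pairs and all 231 gamma pairs shared a PA+OA domain. These counts are by midpoints. By lower ends, 79 of the 105 alpha pairs did, and the boundary parted PCDHA13 from PCDHAC1. Of the 51 pairs of members that are neighbours by midpoint, with no other gene between them, 1 was parted, PCDHA5 and PCDHA6. The same held for 2.54% of the 17373 neighbouring pairs of genes that shared a mock domain anywhere, so the share in the arrays was near the background. Mock domains of 20 or more protein-coding genes had their genes in more than 1 PA+OA domain in 35.9% of 209 cases.

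The boundaries on both sides of the locus were the same in both lists. To the left, both lists had a boundary at 137320000, inside SPOCK1. To the right, the PA+OA list had one at 142000000, 0.671 kb before GNPDA1, which encodes an enzyme of amino sugar metabolism. The mock list had edges at 141960000 and 142000000, which enclosed a domain of 1 bin with RNF14, a ubiquitin ligase gene. Within this stretch of 4640 kb each list had 1 boundary, at 140920000 in the PA+OA list and at 140240000 in the mock list, 680 kb or 17 bins apart. The mock boundary lay at the end of CYSTM1 and 5.04 kb before PFDN1, which encodes a prefoldin subunit, and 546 kb before the alpha array.

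A stretch with a single boundary of either list at a different place was uncommon. Between neighbouring shared boundaries there were 1770 stretches over all chromosomes, of which 1162 had no further boundary and 87 (4.92%) had 1 in each list. The boundaries of those 87 stretches were 80 to 5960 kb apart, with a median of 160 kb, and 23 were farther apart than the 680 kb at the protocadherins. Chromosome 5 had 3 such stretches. Taken one by one, 22.7% of 598 boundaries found in the PA+OA list only lay farther than 680 kb from the other list, as did 35.3% of 722 found in the mock list only. The protocadherin boundaries were thus not extreme in distance. On chromosome 5, 82.6% of 121 PA+OA boundaries and 69.0% of 145 mock boundaries were shared. The PA+OA list had 123 domains on this chromosome and the mock list 150. The part of read depth in these counts was not tested, as depth is not given in the sources used here.

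The other genes around the arrays were grouped differently in the lists. The protocadherins shared their mock domain with 30 other protein-coding genes, which made 83 in 1720 kb, or 48.3 per Mb. By number of genes it ranked 15 of 2679 mock domains. The PA+OA domain of the 48 protocadherins held 11 other genes, 59 in 1080 kb or 54.6 per Mb, at rank 40 of 2524. The PA+OA domain of PCDHA1 to PCDHA5 held 59 others, 64 in 3600 kb or 17.8 per Mb, at rank 35.

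Between 140240000 and 140920000 lay 20 other genes and PCDHA1 to PCDHA5 by midpoint. The 20 genes shared a domain with all 53 protocadherins in the mock list and with those 5 only in the PA+OA list. They include HBEGF, which encodes a ligand of the epidermal growth factor receptor, CD14, the gene of a co-receptor for bacterial lipopolysaccharide, NDUFA2, a gene of respiratory complex I, and HARS1 and HARS2, which encode the cytosolic and the mitochondrial histidyl-tRNA synthetase. ZMAT2 was the last of them before the alpha array. None of the 40 neighbours within 1 Mb of the arrays lay between alpha and beta, and SLC25A2, a gene of a mitochondrial carrier, and TAF7, a gene of the general transcription factor TFIID, lay between beta and gamma. These last 2 genes, with the formin gene DIAPH1, the histone deacetylase gene HDAC3, RELL2, FCHSD1, ARAP3, PCDH1, DELE1 and PCDH12, shared the domain of the beta and gamma genes in both lists. Of the 40 neighbours, CYSTM1 at 30.5 kb and PFDN1 at 34.1 kb were the 2 nearer than 50 kb to a boundary that the other list lacked, which was the mock boundary.

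The related genes outside the arrays were taken from lists. Of 12 protocadherin genes that are not clustered, 4 (33.3%) lay in kept mock domains, against 40.5% of all protein-coding genes. None was within 50 kb of a boundary of 1 list only, against 5.8% of all. A list of 12 genes is too short to tell such a share from none. The 4 were PCDH8, PCDH9, PCDH17 and PCDH20, which shared 1 domain of 31480 kb on chromosome 13 in both lists. PCDH1 and PCDH12, of the same part of chromosome 5, went with the gamma genes. PCDH10 and PCDH18 lay in 1 PA+OA domain of 6320 kb and in mock domains of 1840 and 1640 kb.

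Of 21 genes of factors that act on protocadherin promoters or on cohesin, 10 lay in kept mock domains, or 47.6% against 40.5% of all protein-coding genes. None lay within 50 kb of a boundary of 1 list only, against 5.8% of all, which is a difference of about 1 gene in a list of this size. RAD21, a cohesin subunit gene, lay in a domain of 440 kb in both lists, and so did the histone methyltransferase gene SETDB1 in 800 kb. CTCF lay in a PA+OA domain of 2280 kb and a mock domain of 1160 kb, and SMCHD1, which encodes a silencing factor, in 6880 and 2560 kb. NIPBL, the gene of the cohesin loader, also on chromosome 5, lay in a PA+OA domain of 3440 kb and a mock domain of 1560 kb. Of 15 genes of proteins that act with protocadherins, 6 lay in kept mock domains, or 40% against 40.5% of all protein-coding genes, among them the kinase gene PTK2B and WASF1, a gene of the WAVE complex of actin regulation. NCSTN, a gamma-secretase gene, and CYFIP1, another gene of that complex, lay 48.8 and 3.98 kb from a boundary of 1 list only, a placement that 5.8% of all genes had within 50 kb. The kept shares of the 3 lists rest on few genes and were not tested.

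Other gene clusters were placed in the same way for comparison, with no test. The 9 UGT1A genes of chromosome 2, which also have alternative first exons and shared last exons and span 156 kb, lay in 1 domain of each list, and all 9 were kept. The 11 HOXA genes were in 1 kept domain, and the 9 HOXC genes in 2 kept domains in both lists. The 10 HOXB genes were in 2 domains of each list, with a boundary inside the cluster in both. The 9 HOXD genes were in 1 domain of each list, none kept. The 10 UGT2 genes of chromosome 4, which encode glucuronosyltransferases of the liver and span 1116 kb, were in 1 PA+OA domain and 2 mock domains, with a mock boundary inside the cluster. The 171 olfactory receptor genes of chromosome 11 are scattered over 124553 kb and lay in 18 PA+OA domains and 17 mock domains, with 102 of them kept. That span held 36 edges of boundaries found in the PA+OA list only and 35 of boundaries found in the mock list only. Among the UGT and HOX clusters, which span 103 to 1116 kb, none had a boundary inside it that the mock list lacked. The same was true of the beta and gamma arrays. The clusters are few and differ in length, so this is a description only.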

How the data were processed

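Per the labels' protocols, HepG2 cells were treated and Hi-C libraries were made, 1 per group, and groups follow the sample titles. The authors deposited 1 list of domains per library, as start and end positions in base pairs. The build was hg38 and the tools HiC-Pro and FastQC, per the submitters' processing notes. The sources used here do not give versions, the domain caller, matrix normalization or depth, and a caller or a shallower matrix could set the domains found. All edges were multiples of 40 kb.

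Edges within 1 bin were merged to a boundary, and a boundary was shared where the other list had an edge within 1 bin. Genes were placed by the midpoint of their RefSeq record (GRCh38.p14, the build of hg38), with record ends as alternatives. The matching was checked on simulated lists, which held no entries of zero length and no domains of 1 bin. Python 3.11.15, pandas 2.3.3, scipy 1.17.1 and matplotlib 3.10.9 were used. With 1 library per group there was no test, and no intervals are given, since genes of an array share domains and are not independent. Named genes were the ends of the arrays, the genes nearest to boundaries, the C-type genes and the nearest other genes. Members and lists were chosen with earlier results of these data known, and other genes named as examples, the neighbouring-gene counts, the stretches between shared boundaries and the strings of 10 bases were chosen after values were seen.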

Additional observations from a re-analysis of the deposited data

How the results depend on the processing

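Of 36 values recomputed under other settings, 30 were equal to the reported one or within 1.5 times of it. Some of these could not move: the differing boundaries lie 17 bins apart, and the tolerances reached 3 bins at most. The settings were tolerances of 0, 2 or 3 bins, record ends in place of midpoints, domains under 200 kb joined to the one before, kept domains by a reciprocal overlap of 80%, entries of zero length left out, edges not merged, arrays bounded by midpoints, and windows of 25 or 100 kb. The number of boundaries inside the arrays, 1 in the PA+OA list and 0 in the mock list, was the same under the 3 settings run for it. Leaving out entries of zero length or not merging edges could not change it, as no other edge lies near. The other 6 values moved. By lower ends of the records, 13 genes lay left of the PA+OA boundary in place of 5, and by higher ends 0 did, which left 1 PA+OA domain with protocadherin genes in place of 2. By reciprocal overlap, 5 genes lay in a kept PA+OA domain, against 52.5% of all protein-coding genes. The reason is that 3600 kb in the PA+OA list and 2920 kb in the mock list overlap by over 80%. In the mock list the count stayed at 0, against 52.3% of all. The genes within 50 kb of a boundary of 1 list only, 14 by midpoint, were 4 by lower ends and 0 by higher ends, a setting added after seeing the data. The shares of all protein-coding genes were 5.97% by lower ends and 5.84% by higher ends. The moves other than that by reciprocal overlap follow from where a record is taken to lie, as the alpha records share 1 higher end. No paired analysis was possible because each group has 1 library, and no library could be left out. With no depth given, the precision of a boundary is limited to the bin of 40 kb at best.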
